A study of Mus musculus with 20 samples.

Results

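The response of wild-type (WT) bone marrow-derived macrophages (BMDMs) to zymosan was measured by RNA-seq in 9 libraries, 5 from cells given zymosan for 3 h and 4 from untreated cells, out of 20 libraries in the whole series. The 9 libraries were chosen by their labels alone, no measured value entered the choice, and all genes of the count table were considered. Both groups were WT by label, and the labels do not describe the *Mcu* locus further. Per the study's methods the bone marrow came from mice 15 to 25 weeks old of both sexes. It was grown into macrophages in medium conditioned by L929 cells. The Y-linked gene *Ddx3y* was at 90.6 to 102 CPM in all 9 libraries, so each held male cells, and the sexes behind a library were not given in the sources used here. The remaining libraries, from *Mcu*-/- cells and from WT cells loaded with the Ca2+ chelator BAPTA, were not part of this comparison. The labels call the libraries of a group biological replicates and do not give the animals behind each, so p-values measure the spread between these samples, which may be technical. The zymosan dose of these libraries was not given in the sources used here. The comparison asks which gene programs WT macrophages switch on and off within hours of meeting a yeast particle.

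Zymosan is a particle made from the cell wall of baker's yeast, rich in β-glucan and mannan. Macrophages bind it through the lectin receptor Dectin-1, which signals through the kinase Syk and the adaptor Card9, and through Toll-like receptor 2, which signals through Myd88. Both routes lead to NF-κB and MAP kinases, which switch on cytokine and chemokine genes, and secreted type I interferon then drives a second layer of antiviral genes through the interferon receptor. The gene of Dectin-1, *Clec7a*, was not analysed here.

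The deposited values are read counts per gene. Totals were 14.4 to 19.3 M counts in the untreated and 20.3 to 22.4 M in the zymosan libraries, so a CPM of 1 (counts per M counts) stands for 17.3 to 23.2 counts after scaling. CPM below were scaled with TMM, which assumes that most rises and falls balance, and a fold change is the ratio of mean CPM unless it is given as log2. A fold given with a counting interval is instead the ratio of the pooled counts, corrected for scaled library size, and can differ from the ratio of mean CPM. The macrophage markers *Adgre1* (3905 to 5146 CPM), *Lyz2* (6981 to 8492 CPM) and *Csf1r* (535 to 894 CPM) were high in all 9 libraries. Of the marker lists of other cell types, 5 of 7 T cell, 5 of 5 NK cell, 6 of 9 neutrophil, 6 of 6 mast cell, 6 of 6 erythroid, 2 of 6 B cell, 3 of 5 megakaryocyte, 3 of 7 fibroblast and 3 of 5 endothelial genes stayed under 1 CPM in every library. The summed B cell markers were at 7.12 to 8.89 CPM untreated and 10.1 to 10.9 CPM with zymosan, of which *Cd22* held 4.44 to 5.18 and 7.35 to 8.43 CPM, and the summed fibroblast markers were at 2.78 to 4.38 and 5.71 to 7.78 CPM. The summed dendritic cell markers were at 0.777 to 1.26 CPM untreated and 9.51 to 10.1 CPM with zymosan, of which *Xcr1* alone held 8.61 to 9.73 CPM with zymosan, while *Clec9a* and *Zbtb46* stayed under 1 CPM in every library. The first principal component held 92.8% of the variance and separated the groups, and the second held 1.31% and set zymosan library 4 (18.7) apart from the other zymosan libraries (-8.76 to 4.45). In bulk samples a change in the number of cells of a type and a change in RNA per cell cannot be told apart.

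Zymosan moved most of the transcriptome. Of 11250 genes tested with edgeR's quasi-likelihood test, 8948 (79.5%) passed an adjusted p of 0.05, 4260 (37.9%) higher and 4688 (41.7%) lower with zymosan. At least a 2-fold change was reached by 1368 raised (12.2%) and 1512 lowered genes (13.4%). The largest changes were rises: 330 genes rose and 119 fell by at least 8-fold, 125 rose and 12 fell by at least 32-fold, and 23 rose and 0 fell by at least 256-fold on the fitted log2 scale. In 8023 genes (71.3%) no untreated library overlapped any zymosan library, which for 4 against 5 libraries corresponds to the smallest exact two-sided permutation p of 0.0159. Without zymosan library 4 the test called 4228 genes higher and 4658 lower, and without untreated library 4, the shallowest, 4214 and 4619. The split between rises and falls rests on the scaling. Scaling by library totals, under which a gene's share of all counts is compared, gave 1976 higher and 8354 lower, since the median log2 fold change of all genes was -0.04 with TMM and -0.53 with library totals. Medians of gene lists are therefore to be read against -0.04, and directions that turn under library totals are named. Counts raised and lowered within lists are to be read against the 37.9% and 41.7% of all tested genes.

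**Figure D1:**
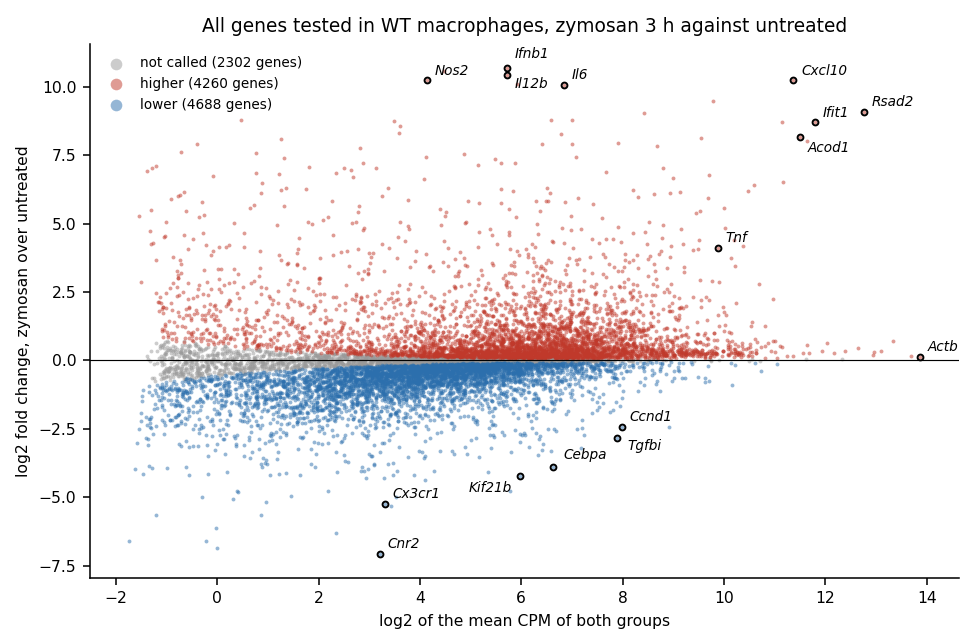
Log2 fold change of each tested gene (vertical axis) against the log2 of its mean CPM (horizontal axis), with genes called higher in red, called lower in blue and not called in grey. Rises reach a log2 fold change of 10.68 (*Ifnb1*) and falls -7.06 (*Cnr2*), and *Rsad2* combines a large rise with a level near that of *Actb*.

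The 12 largest rises among called genes with at least 10 CPM and no overlap were *Ifnb1*, *Il33*, *Il12b*, *Nos2*, *Cxcl10*, *Tnfsf15*, *Il6*, *Gbp5*, *Rsad2*, *Ccl5*, *Htra4* and *Ifi205*, with log2 fold changes from 10.68 to 8.79. They comprise secreted signals (interferon β, the alarmin interleukin 33, the p40 chain of interleukins 12 and 23, the TNF family ligand TL1A, interleukin 6 and 2 chemokines), the enzyme that makes nitric oxide, a serine protease of the Htra family and interferon-inducible genes. Promoters are shown for 4 of them, because NF-κB and interferon-activated factors bind to known short motifs. RefSeq (GRCm38.p6) gave 1 promoter for 8 of the 12, taken from 250 bases before to 50 bases after the gene's start and written on the gene's strand. Capitals mark matches on either strand to the kappa B consensus, the motif bound by NF-κB, or to GAAANNGAAA, the core of the interferon-stimulated response element (ISRE). The first is that of *Ifnb1* (chr4:88522745-88523044, minus strand), with a kappa B match whose first base lies 116 bases before the start:
*Ifnb1*: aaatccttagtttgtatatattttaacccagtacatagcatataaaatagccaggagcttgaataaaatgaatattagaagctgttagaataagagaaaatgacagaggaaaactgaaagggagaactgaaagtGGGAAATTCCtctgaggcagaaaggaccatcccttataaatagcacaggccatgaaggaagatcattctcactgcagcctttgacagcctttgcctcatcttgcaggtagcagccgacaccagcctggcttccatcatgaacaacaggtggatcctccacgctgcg
The promoter of *Cxcl10* (chr5:92348840-92349139, minus strand) held matches to both motifs, kappa B from 159 and, overlapping each other, from 104 and 103 bases and the ISRE core from 213 bases before the start:
*Cxcl10*: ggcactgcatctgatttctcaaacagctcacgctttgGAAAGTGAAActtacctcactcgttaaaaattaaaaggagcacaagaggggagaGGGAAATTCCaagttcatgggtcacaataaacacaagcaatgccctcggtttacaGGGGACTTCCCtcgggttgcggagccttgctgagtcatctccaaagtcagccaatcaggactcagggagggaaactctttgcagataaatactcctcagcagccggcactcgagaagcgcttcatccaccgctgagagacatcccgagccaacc
The promoter of *Il6* (chr5:30012864-30013163, plus strand) held a kappa B match from 44 bases before the start and no ISRE core:
*Il6*: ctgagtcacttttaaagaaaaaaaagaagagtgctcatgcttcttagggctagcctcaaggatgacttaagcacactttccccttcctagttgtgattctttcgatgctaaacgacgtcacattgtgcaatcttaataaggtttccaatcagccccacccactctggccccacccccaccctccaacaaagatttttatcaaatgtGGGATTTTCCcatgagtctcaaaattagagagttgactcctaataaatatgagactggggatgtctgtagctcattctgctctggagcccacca
The promoter of *Rsad2* (chr12:26456403-26456702, minus strand) held an ISRE core from 120 bases before the start and no kappa B match:
*Rsad2*: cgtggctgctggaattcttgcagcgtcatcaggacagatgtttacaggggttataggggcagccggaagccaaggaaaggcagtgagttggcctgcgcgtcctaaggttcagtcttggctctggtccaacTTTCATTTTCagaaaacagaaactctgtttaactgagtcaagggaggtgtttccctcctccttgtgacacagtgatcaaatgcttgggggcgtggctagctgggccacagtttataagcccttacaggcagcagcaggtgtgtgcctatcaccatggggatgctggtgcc
Of the other 4, *Gbp5* held both motifs, *Ifi205* held the ISRE core at 2 places, and *Il12b* and *Tnfsf15* held neither in this window. A match is a description of the letters and not of a bound site. Among all 22862 RefSeq genes with 1 promoter, 8.01% held the kappa B consensus and 3.58% the ISRE core.

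The promoters of strongly raised genes differed in composition from those of the other tested genes. Of the 213 genes raised at least 8-fold that had 1 promoter, 17.8% held the ISRE core, against 6.85% of 613 genes raised 2- to 8-fold, 2.71% of 5315 genes changed less than 2-fold, 2.35% of 723 genes lowered 2- to 4-fold and 2.16% of 232 genes lowered at least 4-fold. The kappa B consensus was in 16.4%, 13.5%, 9.56%, 8.58% and 9.91% of the same classes. Letters that match the AP-1 site named next are no match to the cyclic AMP response element, and a site read on both strands was counted once. The letters of a TATA box (TATAAA, either strand, anywhere in the window) were in 20.2% of the promoters raised at least 8-fold. They were in 5.95% of those changed less than 2-fold, against 14.8% of all promoters. An AP-1 site (TGANTCA, either strand) was in 15.02% and 4.10%, against 7.98% of all promoters. The cyclic AMP response element (TGACGTCA, either strand) went the other way, with 1.41% and 3.59%, against 1.85% of all promoters. Median GC content was 53.3% in promoters raised at least 8-fold and 61% in those changed less than 2-fold, against 52.3% in all promoters. Whether base content accounts for the motif shares was not tested. Observed over expected CpG had a median of 0.457 in genes raised at least 8-fold and 0.801 in genes changed less than 2-fold, against 0.374 in all promoters. Their median level in untreated cells was 2.26 CPM, against 28.3 CPM for genes changed less than 2-fold and 7.54 CPM for genes lowered at least 4-fold. They also spanned less of the genome, with a median of 16.6 kb against 24.02 kb. Any gene with a larger change that did not pass edgeR's test was counted in the class changed less than 2-fold. These are descriptions of classes cut from the fold changes, with no test of the classes. The untreated level is the denominator of the fold change. Genes near 0 counts untreated were tested only where their zymosan counts were high. The low untreated level of the class raised at least 8-fold is therefore partly built in.

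**Figure D2:**
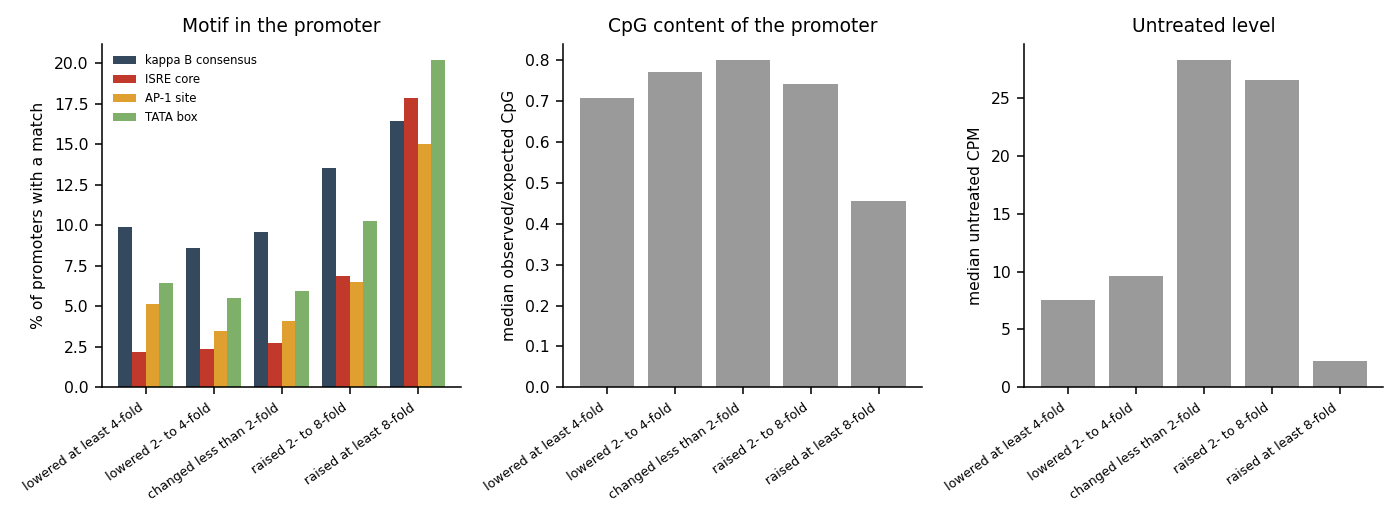
For 5 classes of response, the percentage of promoters with a motif match (left), the median observed over expected CpG of the promoter (middle) and the median untreated CPM (right). Genes raised at least 8-fold have the most matches to each of the 4 motifs plotted, the least CpG (0.457) and the lowest untreated level (2.26 CPM). That level is partly built in, since it is the denominator of the fold change that defines the classes.

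Cytokines held the largest single rises. Of 39 tested cytokines and growth factors, 31 rose and 4 fell, 25 and 3 of them at least 2-fold, and the median log2 fold change was 3.73. *Ifnb1* (ENSMUSG00000048806, chromosome 4 from 88522025 to 88522774), which encodes interferon β, was at 0.0431, 0.0431, 0.0868 and 0.0568 CPM in untreated libraries 1 to 4 and at 95.3, 114, 114, 95.2 and 105 CPM in zymosan libraries 1 to 5. The untreated values stand for 1 or 2 counts per library, and the zymosan libraries lay close to each other at a far higher level. The pooled counts gave a rise of 1826-fold (95% counting interval 782 to 5625). *Il12b* (ENSMUSG00000004296, chromosome 11 from 44400063 to 44414033) was at 0.0863, 0.129, 0 and 0.0568 CPM in untreated libraries 1 to 4 and at 112, 96.6, 97.2, 114 and 104 CPM in zymosan libraries 1 to 5. It went from near nothing to about the level of *Ifnb1*, a rise of 1518-fold (95% counting interval 697 to 4136). *Il6* (ENSMUSG00000025746, chromosome 5 from 30013114 to 30019981), a driver of fever and of the acute phase response, was at 0.0431, 0.129, 0.347 and 0.341 CPM in untreated libraries 1 to 4 and at 229.97, 222, 228, 238 and 233 CPM in zymosan libraries 1 to 5. All 5 zymosan libraries lay close together, and the log2 fold change was 10.08 ± 0.10. *Il33* went from 0.0216 ± 0.0431 to 44.5 ± 5.67 CPM, a rise of 1930.5-fold (95% counting interval 534 to 15946), and *Tnfsf15* went from 0.104 ± 0.0541 to 120.02 ± 10.8 CPM. 

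The interleukin 1 genes differed in level. *Il1b* (ENSMUSG00000027398, chromosome 2 from 129364570 to 129371139), whose product needs cleavage by caspase-1, was at 1.55, 2.07, 1.35 and 1.19 CPM in untreated libraries 1 to 4 and at 105, 117, 111, 116 and 117 CPM in zymosan libraries 1 to 5. It rose 73.6-fold with no overlap. *Il1a* stayed lower, going from 0.0751 ± 0.0728 to 24.1 ± 1.69 CPM as means ± SD, a rise of 350.1-fold (95% counting interval 161 to 955). *Tnf* (ENSMUSG00000024401, chromosome 17 from 35199381 to 35202007) was already present untreated, at 97.8, 109, 107 and 97.2 CPM in untreated libraries 1 to 4 and at 1747, 1773, 1742, 1808 and 1788 CPM in zymosan libraries 1 to 5. Its rise of 17.3-fold carried it to the highest level of the cytokines named here. The cytokines that fell were growth factors and *Il16*. *Pdgfb*, a platelet-derived growth factor chain, fell 9.86-fold (44.97 ± 2.74 to 4.56 ± 0.545 CPM), *Il16*, a ligand of CD4, 3.45-fold (29.8 ± 1.59 to 8.62 ± 1.004 CPM), and *Vegfa*, which promotes vessel growth, 2.77-fold (36.1 ± 1.97 to 13.01 ± 1.01 CPM). *Vegfb* was at 12.5 ± 0.665 to 12.5 ± 0.898 CPM and did not pass the test.

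Chemokines, which recruit leukocytes, rose as a group: 15 of 18 tested rose, 14 of them at least 2-fold, with a median log2 fold change of 4.32. *Cxcl10* (ENSMUSG00000034855, chromosome 5 from 92346638 to 92348889), which attracts T cells through Cxcr3, was at 4.66, 3.62, 4.56 and 4.83 CPM in untreated libraries 1 to 4 and at 5245, 5208, 5052, 5623 and 5284 CPM in zymosan libraries 1 to 5. The groups lay far apart, with a rise of 1196-fold. *Ccl5* was at 0.863, 1.55, 1.52 and 1.14 CPM in untreated libraries 1 to 4 and at 685, 656, 649, 735 and 687 CPM in zymosan libraries 1 to 5, a rise of 538-fold. The neutrophil attractants differed in level, with *Cxcl2* going from 1.04 ± 0.263 to 256 ± 7.79 CPM and *Cxcl1* reaching only 11.3 CPM, a rise of 141-fold (95% counting interval 68.1 to 351). *Cxcl9*, another ligand of Cxcr3, rose by 489-fold (95% counting interval 191 to 1795). *Cxcl14* fell 4.67-fold (12.1 ± 0.94004 to 2.59 ± 0.305 CPM) and *Ccl6* fell slightly, from 94.4 ± 5.94 to 86.3 ± 1.57 CPM. *Cx3cl1* was at 5.82 ± 0.975 to 5.298 ± 0.822 CPM and did not pass the test. The 18 chemokines together held 0.0890% ± 0.0025 (SD, n = 4) of all counts untreated and 1.21% ± 0.0222 (SD, n = 5) with zymosan.

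**Figure D3:**
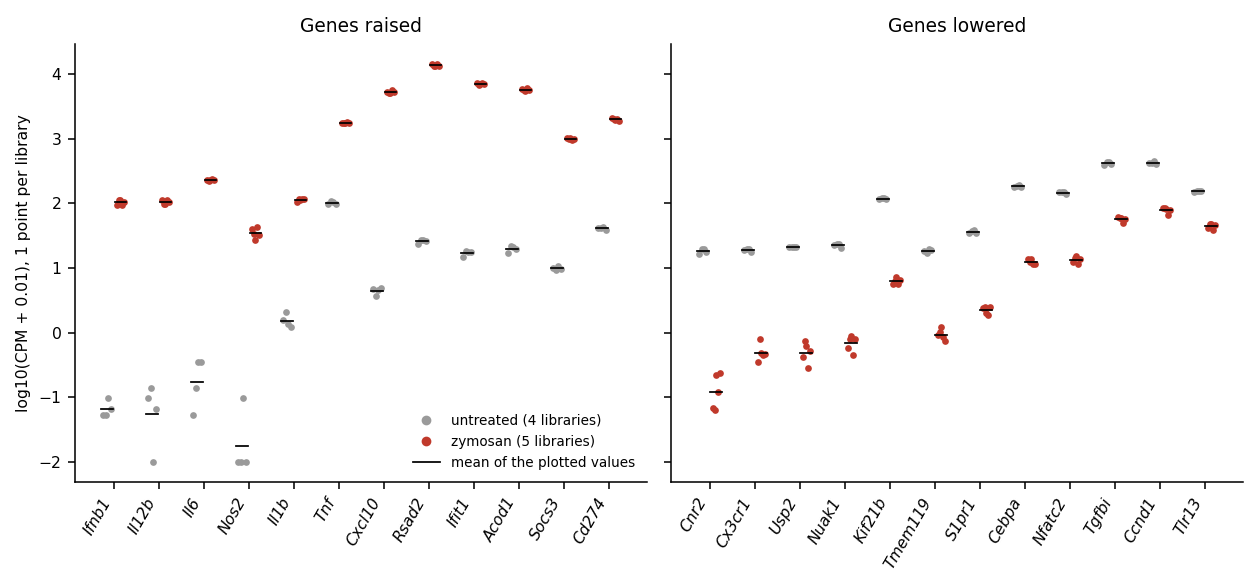
CPM of 12 raised (left) and 12 lowered genes (right) on a log10 scale after adding 0.01, with 1 point per library, untreated in grey and zymosan in red, and a bar at the mean of the plotted values. In none of the 24 genes does an untreated library overlap a zymosan library.

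Interferon-stimulated genes had the highest median of the 41 lists with tested members. All 43 tested rose, 42 of them at least 2-fold, with a median log2 fold change of 4.39 and a range from 0.86 to 9.48. Their share of all counts was 0.175% ± 0.00272 (SD, n = 4) untreated and 4.74% ± 0.169 (SD, n = 5) with zymosan. *Rsad2* (ENSMUSG00000020641, chromosome 12 from 26442746 to 26456452), which encodes the antiviral enzyme viperin, was at 23.4, 27.1, 26.7 and 26.5 CPM in untreated libraries 1 to 4 and at 14537, 13633, 13541, 14367 and 13522 CPM in zymosan libraries 1 to 5. The rise was 537-fold with no overlap, and *Rsad2* ranked second of all genes with zymosan, at 1.19% of counts, behind *Actb* at 1.33%. *Ifit1* (ENSMUSG00000034459, chromosome 19 from 34640871 to 34650009), which binds foreign RNA, was at 14.9, 18.1, 17.7 and 17.8 CPM in untreated libraries 1 to 4 and at 7257, 6942, 6970.1, 7292 and 7049 CPM in zymosan libraries 1 to 5, a rise of 415-fold. *Gbp5*, a guanylate-binding protein that acts on intracellular pathogens, was at 2.07, 2.16, 2.47 and 3.24 CPM in untreated libraries 1 to 4 and at 1812, 1701, 1689.97, 1859 and 1679 CPM in zymosan libraries 1 to 5, a rise of 703-fold. *Cmpk2*, the neighbour of *Rsad2* that encodes a mitochondrial nucleotide kinase, went from 10.8 ± 0.638 to 4542 ± 345 CPM, and *Ifi205* from 0.581 ± 0.0782 to 256 ± 17.98 CPM.

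Many interferon-inducible genes lie side by side, and long stretches of neighbours rose together. Taking the 11136 tested genes with a position in GENCODE M21 (mm10), 10 runs of at least 4 consecutive genes rose by a log2 of at least 2 each, 56 genes in all. Genes in these runs are named after their values were seen. The longest, on chromosome 1 from 173350879 to 174031810, held 12 genes from *Aim2* to *Ifi205*, among them the Ifi200 family of DNA sensors, with log2 fold changes from 2.05 to 8.79. On chromosome 11 from 82951349 to 83215154 lay 7 Schlafen genes (2.58 to 4.76), on chromosome 19 from 34550694 to 34650009 the 6 *Ifit* genes (4.16 to 8.70), on chromosome 14 from 59244441 to 59440884 6 genes around *Phf11a* (2.23 to 4.09), and on chromosome 3 from 142493978 to 142638008 5 guanylate-binding proteins (4.80 to 9.48). A run of chemokines on chromosome 11 from 82035571 to 82116799 held *Ccl2*, *Ccl7*, *Ccl12* and *Ccl8* (2.62 to 4.06). Members of these families resemble each other closely, and how reads shared between them were counted was not given in the sources used here, so single members are uncertain.

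**Figure D4:**
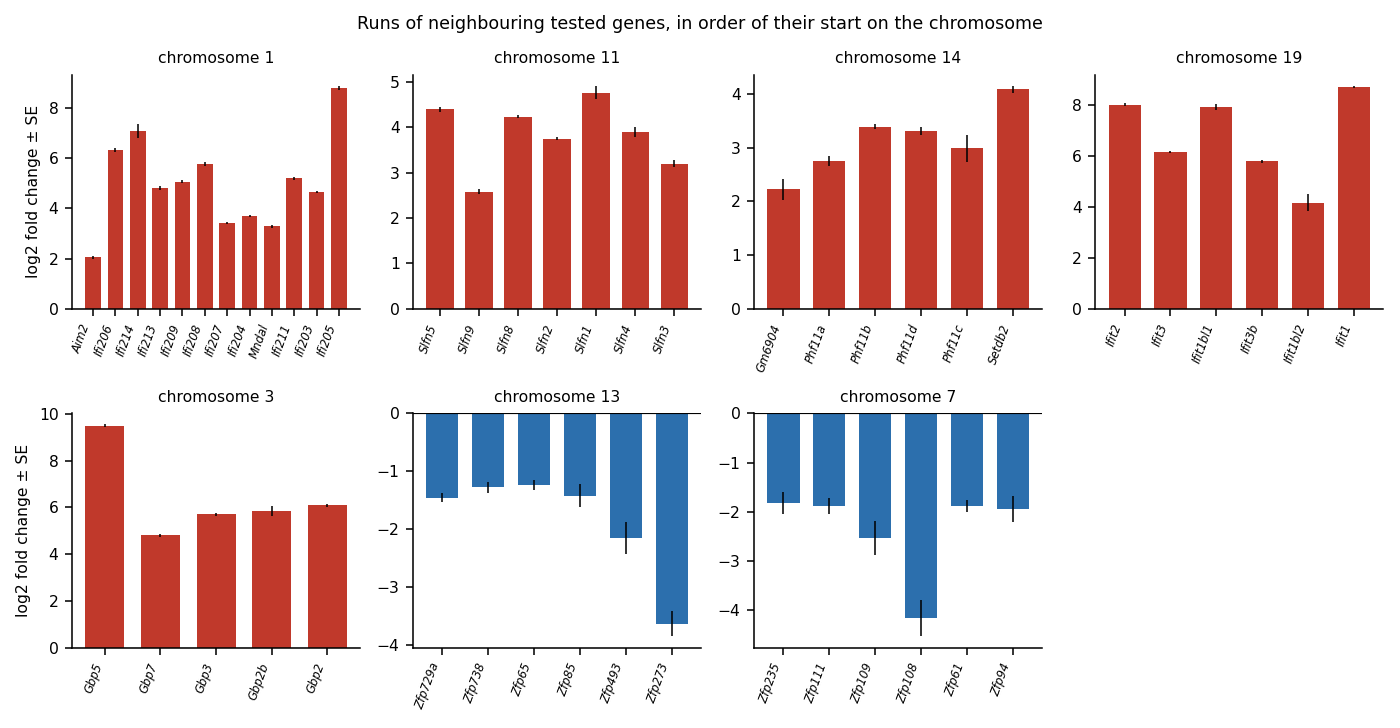
Log2 fold change with its standard error for neighbouring tested genes, in the order of their starts, in 5 runs that rose (red) and 2 runs of zinc finger genes that fell (blue). The run on chromosome 1 ranges from 2.05 (*Aim2*) to 8.79 (*Ifi205*), and *Ifit1* and *Gbp5* are the highest of theirs.

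The sensors of zymosan had a lower median than the cytokines. Of 28 receptors and adaptors, 22 rose and 5 fell, with a median log2 fold change of 0.64. *Clec4e* (ENSMUSG00000030142, chromosome 6 from 123281789 to 123289870), the lectin Mincle, was at 9.02, 10.2, 10.3 and 10.001 CPM in untreated libraries 1 to 4 and at 639, 623, 589.9, 662 and 609 CPM in zymosan libraries 1 to 5, and its rise of 63.2-fold set it apart from the rest of the list. *Malt1*, the protease of the Card9 complex, rose 9.201-fold (15.5 ± 0.706 to 143 ± 7.64 CPM), and *Cd14*, a co-receptor of Toll-like receptors, 5.01-fold (222 ± 14.5 to 1114 ± 20.8 CPM). *Tlr2* was at 128, 133, 126 and 125 CPM in untreated libraries 1 to 4 and at 532, 548, 557, 499 and 553 CPM in zymosan libraries 1 to 5, a rise of 4.202-fold. *Irak2*, a kinase downstream of Myd88, rose 3.61-fold. The list also held falls, with the adaptor *Card9* at log2 -0.87 ± 0.05 and the kinases *Irak4* at -0.46 ± 0.05 and *Irak1* at -0.34 ± 0.04. *Tlr6*, the partner of Tlr2, was at 17.2 ± 0.775 to 17.4 ± 0.788 CPM and did not pass the test. Of 18 receptors for other microbial patterns, 15 rose and 3 fell (median 1.04). The RNA sensors *Ifih1* (72.5-fold) and *Ddx58* (10.7-fold), the peptidoglycan sensors *Nod2* (25.4-fold) and *Nod1* (16.2-fold) and the nucleic acid sensor *Zbp1* (10.97-fold) rose. *Tlr13*, a receptor for bacterial ribosomal RNA, was at 153, 156, 154 and 153 CPM in untreated libraries 1 to 4 and at 42.1, 47.7, 48.6, 38.2 and 47.1 CPM in zymosan libraries 1 to 5, a fall of 3.45-fold. *Tmem173*, which encodes Sting, fell to a log2 fold change of -0.56 ± 0.06.

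NF-κB genes rose without exception among those that passed the test, 24 of 27 raised and 0 lowered (median log2 1.49). The largest rises were in inhibitors and modulators of the pathway. *Tnfaip3* (ENSMUSG00000019850, chromosome 10 from 19000910 to 19015657), which encodes the ubiquitin-editing enzyme A20, was at 26.6, 29.3, 23.95 and 25.5 CPM in untreated libraries 1 to 4 and at 1647, 1679, 1698, 1507 and 1592 CPM in zymosan libraries 1 to 5, a rise of 61.7-fold. *Traf1* rose 54.9-fold, *Nfkbie*, an inhibitor that holds NF-κB in the cytoplasm, 46.7-fold, and *Tnip3*, a partner of A20, 19.03-fold. Of the subunits, *Nfkb2* rose most, 7.87-fold (62.1 ± 5.78 to 488 ± 13.6 CPM). *Cyld*, a deubiquitinase that restrains the pathway, was at 59.96 ± 1.32 to 61.7 ± 3.09 CPM and did not pass the test.

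Of 29 immediate-early transcription factors, 22 were raised at 3 h and 7 were lowered (median log2 1.03). The orphan nuclear receptor *Nr4a3* was at 0.8197, 2.72, 2.17 and 1.19 CPM in untreated libraries 1 to 4 and at 64.5, 59.4, 62.6, 49.6 and 51.002 CPM in zymosan libraries 1 to 5, a rise of 33.3-fold. The small Maf factors *Maff* (14.8-fold) and *Mafk* (11.5-fold), *Egr3* (10.9-fold) and *Klf6* (7.71-fold) also rose. *Myc*, which promotes growth, was at 38.999, 43.6, 43.05 and 37.96 CPM in untreated libraries 1 to 4 and at 13.9, 18.2, 17.998, 13.4 and 15.5 CPM in zymosan libraries 1 to 5, and fell 2.59-fold with no overlap. *Klf2* fell 2.34-fold and *Bhlhe40* to a log2 fold change of -0.95 ± 0.10.

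Of 24 transcription factors of the macrophage lineage, 11 (45.8%) rose and 13 (54.2%) fell, against 37.9% and 41.7% of all tested genes (median log2 -0.33). *Cebpa* (ENSMUSG00000034957, chromosome 7 from 35119293 to 35121928), required for the myeloid lineage, was at 178, 189, 195 and 182 CPM in untreated libraries 1 to 4 and at 13.9, 12.2, 13.95, 11.4 and 11.7 CPM in zymosan libraries 1 to 5. Every zymosan library lay far below every untreated library, a fall of 14.7-fold. *Id1*, an inhibitor of helix-loop-helix factors, was at 64.6, 64.5, 68.4 and 67.96 CPM in untreated libraries 1 to 4 and at 5.89, 5.36, 4.88, 6.74 and 5.71 CPM in zymosan libraries 1 to 5, a fall of 11.6-fold. *Tfeb*, a master factor of lysosome genes, fell 10.04-fold (38.2 ± 2.54 to 3.81 ± 0.699 CPM). *Spic*, a factor of red pulp macrophages, was at 5.91, 6.17, 6.94 and 5.796 CPM in untreated libraries 1 to 4 and at 148, 159, 158, 149.8 and 154 CPM in zymosan libraries 1 to 5, a rise of 24.8-fold. *Bach1*, a repressor of haem oxygenase, rose 6.89-fold and *Tfec* 4.58-fold.

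Genes that restrain signalling were raised and lowered in the same list, 18 and 13 of 32 (median log2 0.81). The suppressors of cytokine signalling rose most. *Socs3* was at 9.88, 9.49, 10.7 and 9.66 CPM in untreated libraries 1 to 4 and at 1028, 993, 1028, 971 and 1002 CPM in zymosan libraries 1 to 5, a rise of 101-fold, and *Socs1* was at 1.596, 1.47, 1.52 and 1.65 CPM in untreated libraries 1 to 4 and at 277, 259, 249.7, 302 and 263 CPM in zymosan libraries 1 to 5, a rise of 173-fold. *Cish* rose from 0.295 ± 0.164 to 13.5 ± 0.723 CPM. The MAP kinase phosphatases moved apart, with *Dusp2* (61.9-fold) and *Dusp1* (19.4-fold) raised and *Dusp6* lowered 6.93-fold (77.4 ± 5.22 to 11.2 ± 0.923 CPM). *Zfp36l2*, which destabilizes mRNA, fell 3.76-fold, while its relative *Zfp36* rose 8.51-fold. *Rgs2*, which shortens G protein signals, fell 3.62-fold.

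Microbicidal and metabolic effectors, taken as 1 list, rose in 20 of 24 with 2 lowered (median log2 1.49). *Nos2* (ENSMUSG00000020826, chromosome 11 from 78920787 to 78960254), the inducible nitric oxide synthase, was at 0, 0, 0.0868 and 0 CPM in untreated libraries 1 to 4 and at 39.7, 33.7, 27.5, 42.5 and 32.7 CPM in zymosan libraries 1 to 5. A single untreated library held any counts, 2 in all, and the rise was 1526-fold (95% counting interval 422 to 12609). *Acod1* (ENSMUSG00000022126, chromosome 14 from 103046977 to 103056573), which makes itaconate from the tricarboxylic acid cycle, was at 17.3, 21.95, 21.3 and 19.7 CPM in untreated libraries 1 to 4 and at 5827, 5677, 5601, 6082 and 5806 CPM in zymosan libraries 1 to 5, a rise of 289-fold. The arginine transporter *Slc7a2* went from 0.514 ± 0.178 to 88.3 ± 5.67 CPM, *Ass1*, which regenerates arginine, rose 12.8-fold, and the cystine transporter *Slc7a11* rose 57.7-fold. Subunits of the NADPH oxidase did not move as one, since *Ncf1* fell to a log2 fold change of -0.39 ± 0.03 and *Ncf4* was at 126 ± 2.76 to 131 ± 2.895 CPM and did not pass the test.

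Inflammasome and cell death genes rose in 24 and fell in 5 of 35 cases (median log2 0.78). *Nlrp3*, the sensor of the best known inflammasome, was at 58.6, 62.3, 67.4 and 55.97 CPM in untreated libraries 1 to 4 and at 178, 183, 192, 167 and 174 CPM in zymosan libraries 1 to 5, a rise of 2.93-fold, and its adaptor *Pycard* was at 122 ± 5.74 to 122 ± 4.23 CPM and did not pass the test. Survival and death genes were both among the largest rises. The survival kinase *Pim1* rose 76.5-fold, *Cflar*, a brake on caspase-8, 9.397-fold, and *Bcl2a1d*, a survival protein with near-identical copies whose value is uncertain, 8.17-fold. The death promoter *Bbc3* rose 14.4-fold and the stress gene *Gadd45b* 17.4-fold. *Nlrp1b* fell 2.86-fold and the survival gene *Bcl2l1* 2.11-fold (146 ± 6.94 to 69.5 ± 3.11 CPM).

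Of 24 genes of antigen presentation and co-stimulation, 20 rose and 2 fell (median log2 1.05). *Cd274*, which encodes the checkpoint ligand PD-L1, was at 41.7, 42.2, 43.8 and 38.8 CPM in untreated libraries 1 to 4 and at 2102, 2024, 1958, 2012 and 1884 CPM in zymosan libraries 1 to 5, a rise of 47.95-fold. *Cd69*, an activation marker that keeps cells in tissue, rose 228-fold, *Cd86*, a co-stimulator of T cells, 14.3-fold, *Cd83* 6.63-fold, and *Tap1*, the peptide transporter for class I molecules, 9.01-fold. *Icosl*, another co-stimulator, fell 2.16-fold, and the class II chaperone gene *H2-DMa* was at log2 -0.25 ± 0.09, a call lost by edgeR's test without untreated library 3 or 4 or zymosan library 4 or 5 (adjusted p = 0.0531 to 0.0741). *H2-DMb1* was at 17.6 ± 1.02 to 16.2 ± 0.768 CPM and did not pass the test.

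Matrix and clotting genes rose in 17 and fell in 7 of 25 (median log2 1.03). The protease inhibitors *Serpinb2* (0.204 ± 0.122 to 34.5 ± 2.697 CPM) and *Timp1* (0.269 ± 0.173 to 13.6 ± 1.56 CPM) and the metalloproteases *Mmp13* (19.9-fold) and *Mmp14* (7.86-fold) rose. The urokinase receptor *Plaur* rose 4.13-fold, while the urokinase gene *Plau* itself fell 2.28-fold. *Mmp19* fell 2.83-fold and the sheddase *Adam10* to a log2 fold change of -0.63 ± 0.03. Complement genes rose in 10 of 14 and fell in 0 (median log2 0.35, and -0.14 with library totals). *Cfb* rose 4.75-fold, *C3*, the central component, 2.404-fold (152 ± 9.36 to 364 ± 14.6 CPM), and *Cd55*, a brake on it, 2.09-fold. *C1qa* was at 449.95 ± 16.1 to 457 ± 6.85 CPM and did not pass the test.

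In prostaglandin synthesis the inducible and constitutive cyclooxygenases went opposite ways. *Ptgs2* (ENSMUSG00000032487, chromosome 1 from 150100031 to 150108227) was at 0.906, 0.776, 0.477 and 0.625 CPM in untreated libraries 1 to 4 and at 225, 219.7, 210.4, 230.2 and 213 CPM in zymosan libraries 1 to 5, a rise of 316-fold. *Ptgs1* fell 2.29-fold (33.3 ± 0.748 to 14.6 ± 1.47 CPM) and the thromboxane synthase *Tbxas1* to a log2 fold change of -0.74 ± 0.05. The receptors *Ptafr* (6.55-fold), for platelet-activating factor, and *Ptger4* (4.04-fold), for prostaglandin E2, rose. In the whole list 9 of 19 (47.4%) rose and 7 (36.8%) fell, against 37.9% and 41.7% of all tested genes (median log2 -0.03).

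**Figure D5:**
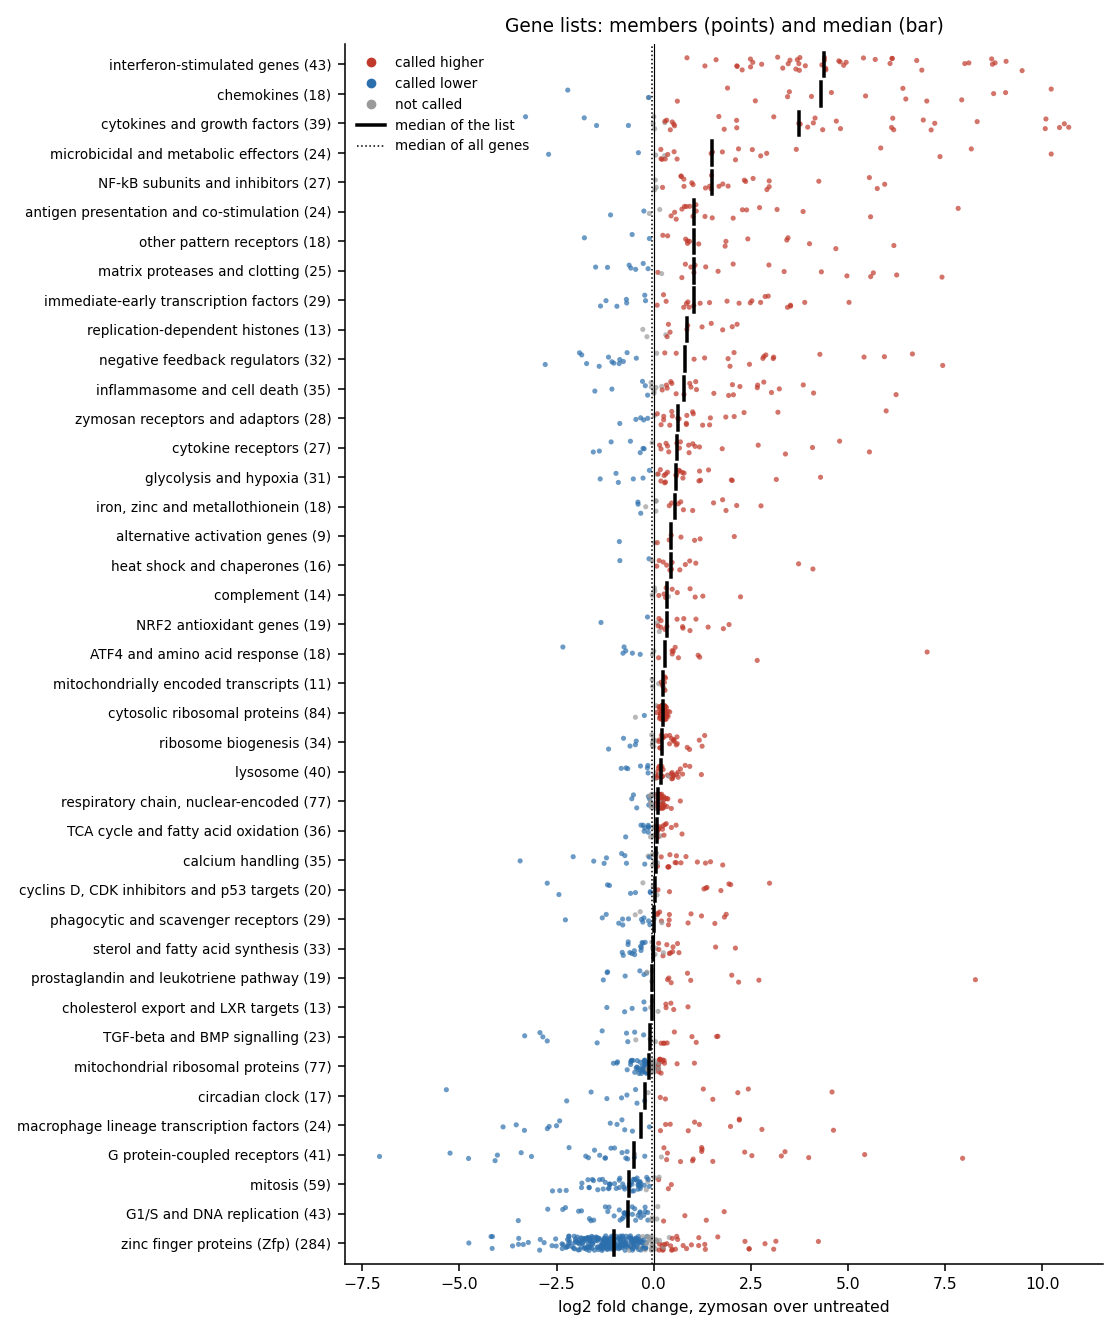
Log2 fold change of every tested member (points) of 41 gene lists, with the list's median as a black bar, the number tested in parentheses and the median of all genes as a dotted line. Interferon-stimulated genes, chemokines and cytokines have medians from 3.73 to 4.39, while zinc finger genes, DNA replication and mitosis lie furthest below 0, from -1.03 to -0.63.

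The receptors through which macrophages sense other cells changed in both directions. Of 41 G protein-coupled receptors, 17 (41.5%) rose and 22 (53.7%) fell, against 37.9% and 41.7% of all tested genes (median log2 -0.50). A 2-fold change was reached by 12 raised (29.3%) and 16 lowered (39.0%), against 12.2% and 13.4% of all tested genes. *Cnr2* (ENSMUSG00000062585, chromosome 4 from 135895394 to 135920207), the cannabinoid receptor of immune cells, was at 16.4, 19.7, 19.4 and 17.8 CPM in untreated libraries 1 to 4 and at 0.0577, 0.0525, 0.207, 0.111 and 0.226 CPM in zymosan libraries 1 to 5. It showed the largest fall of all called genes with at least 10 CPM, with a log2 fold change of -7.06 ± 0.18. *Cx3cr1* (ENSMUSG00000052336, chromosome 9 from 119901616 to 120069879), the fractalkine receptor of monocytes and microglia, was at 19.4, 20.1, 19.7 and 18.01 CPM in untreated libraries 1 to 4 and at 0.346, 0.788, 0.467, 0.446 and 0.452 CPM in zymosan libraries 1 to 5, a fall of 38.6-fold. *S1pr1*, which guides cells along sphingosine 1-phosphate, was at 34.4, 37.5, 38.8 and 35.003 CPM in untreated libraries 1 to 4 and at 2.37, 2.47, 2.02, 1.84 and 2.49 CPM in zymosan libraries 1 to 5, a fall of 16.3-fold. In the other direction *Ccrl2*, a receptor that presents chemerin, rose 249-fold (1.92 ± 0.238 to 479 ± 14.97 CPM), *Hcar2*, a receptor for niacin and ketone bodies, 42.7-fold, and the lysophosphatidic acid receptor *Lpar1* from 0.692 ± 0.136 to 11.05 ± 0.573 CPM. *Adgre4* was at 6.17 ± 1.05 to 7.08 ± 0.403 CPM and did not pass the test.

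Of 27 cytokine receptors, 19 rose and 7 fell (median log2 0.60). *Il15ra*, which presents interleukin 15, went from 0.892 ± 0.235 to 41.3 ± 3.35 CPM. *Cd40* rose 27.3-fold, the death receptor *Fas* 16.8-fold, *Il17ra* 6.45-fold and *Tnfrsf1b*, a TNF receptor, 3.39-fold (463 ± 24.8 to 1571 ± 78.3 CPM). *Il6ra* fell 2.64-fold, *Il21r* 2.94-fold and *Ifngr1*, the ligand-binding chain for interferon γ, 2.14-fold (139 ± 2.404 to 64.9 ± 2.56 CPM).

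The other large falls named by size were in genes of varied function. *Usp2*, a deubiquitinase under circadian control, was at 21.01, 20.9, 21.5 and 20.9 CPM in untreated libraries 1 to 4 and at 0.404, 0.735, 0.622, 0.278 and 0.509 CPM in zymosan libraries 1 to 5, a fall of 41.3-fold. *Kif21b*, a kinesin motor, was at 117, 121, 121 and 117 CPM in untreated libraries 1 to 4 and at 5.598, 6.41, 7.37, 5.62 and 6.62 CPM in zymosan libraries 1 to 5, a fall of 18.8-fold. *Tmem119*, known as a marker of microglia, was at 18.6, 17.1, 19.4 and 18.98 CPM in untreated libraries 1 to 4 and at 0.923, 0.998, 1.19, 0.835 and 0.735 CPM in zymosan libraries 1 to 5, a fall of 19.8-fold. *Nuak1*, a kinase related to AMP-activated kinase, fell 32.1-fold (22.4 ± 1.39 to 0.697 ± 0.1795 CPM). The others of the 12 largest falls were *Rtn4rl1* (log2 -6.31 ± 0.22), *Pald1* (-4.79 ± 0.07), *Fam78a* (-4.38 ± 0.10), *Pgbd5* (-4.30 ± 0.13), *Nckap5l* (-4.20 ± 0.12) and *Zfp395* (-4.19 ± 0.11).

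Cell cycle genes fell. Of 43 genes of the G1/S transition and DNA replication, 35 fell, 13 of them at least 2-fold, and 4 rose (median log2 -0.67). Of 59 mitotic genes, 52 fell and 3 rose (median -0.63). *E2f2*, an activator of S phase genes, was at 15.8, 14.8, 15.5 and 13.9 CPM in untreated libraries 1 to 4 and at 1.79, 1.31, 1.504, 0.7797 and 1.3005 CPM in zymosan libraries 1 to 5, a fall of 11.2-fold. *Dtl* fell 6.62-fold, the licensing factor *Cdc6* 5.09-fold and *Clspn* 3.82-fold. In mitosis *Cdca2* fell 5.38-fold, *Aspm* 4.78-fold and *Anln*, which works in cytokinesis, 3.24-fold. *Mki67*, the proliferation marker, did not follow and was at 156 ± 4.6005 to 158 ± 10.3 CPM, without passing the test. *Pcna*, the sliding clamp of DNA replication and repair, went against its list, at 215, 219.6, 211 and 216 CPM in untreated libraries 1 to 4 and at 768, 750.3, 752, 762 and 754 CPM in zymosan libraries 1 to 5, a rise of 3.52-fold. The licensing factor *Cdt1* also rose, 2.56-fold.

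The D cyclins moved in different directions. *Ccnd3*, named after its values were seen, fell 1.39-fold (81.5 ± 2.94 to 58.8 ± 1.41 CPM). *Ccnd1* (ENSMUSG00000070348, chromosome 7 from 144929931 to 144939925) was at 423, 431, 448 and 409.98 CPM in untreated libraries 1 to 4 and at 83.7, 85.02, 81.1, 65.4 and 78.9 CPM in zymosan libraries 1 to 5, a fall of 5.43-fold, while *Ccnd2* rose 3.95-fold (29.3 ± 1.17 to 116 ± 9.83 CPM). *Cdkn1a*, the inhibitor p21, rose 3.82-fold (237 ± 4.85 to 905 ± 30.2 CPM), and *Cdkn1b* was at 33.95 ± 2.604 to 33.4 ± 1.91 CPM and did not pass the test. *Ccng2* rose 7.87-fold and the stress gene *Sesn1* fell 6.699-fold. Of 66 replication-dependent histone genes in the count table, only 13 passed the count filter. Of these 13, 10 rose and 0 fell (median log2 0.85). The list's median in single zymosan libraries ranged from 0.38 to 1.04. *Hist1h4i* rose 2.37-fold and *Hist2h2be* was at 2.25 ± 0.5402 to 1.97 ± 0.114 CPM and did not pass the test. Histone genes are near-identical copies, so single members are uncertain.

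Zinc finger genes with *Zfp* symbols formed the largest list that fell. Of 284 tested, 227 fell, 148 of them at least 2-fold, and 30 rose (median log2 -1.03). Most encode repressors that bind DNA, though *Zfp36* binds RNA. *Zfp810* was at 15.6, 14.1, 14.4 and 16.9 CPM in untreated libraries 1 to 4 and at 0.693, 1.58, 2.02, 1.17 and 1.24 CPM in zymosan libraries 1 to 5, a fall of 11.4-fold. *Zfp945* was the largest exception, at 7.77, 6.9003, 7.81 and 7.16 CPM in untreated libraries 1 to 4 and at 146, 135, 142, 135 and 142 CPM in zymosan libraries 1 to 5, a rise of 18.9-fold, and *Zfp800* rose 8.83-fold. Of the 8 runs of at least 5 neighbours lowered at least 2-fold each (46 genes), several were clusters of these genes, such as 6 on chromosome 13 from 67612763 to 67827002 (-3.63 to -1.24), 6 on chromosome 7 from 24134169 to 24316666 (-4.16 to -1.82) and 6 on chromosome 7 from 29816114 to 29954089 (-1.86 to -1.18). *Zfp106* was at 185 ± 8.01 to 193 ± 6.67 CPM and did not pass the test. Zinc finger genes of a cluster resemble each other, and single members are uncertain for that reason.

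Genes of glycolysis and hypoxia, taken as 1 list, rose in 24 of 31 with 6 lowered, but mostly by little (median log2 0.57, and 0.07 with library totals). The transporters led. *Slc2a6*, a hexose transporter, rose 19.7-fold (11.1 ± 0.585 to 219 ± 4.11 CPM), the lactate transporter *Slc16a1* 8.86-fold, the phosphofructokinase *Pfkp* 3.996-fold and the glucose transporter *Slc2a1* 2.66-fold. *Pfkfb4* fell 2.598-fold. The tricarboxylic acid cycle and fatty acid oxidation moved less, with 18 of 36 raised, 9 lowered and none of them changed 2-fold, and a range of log2 fold changes from -0.72 (*Cpt2*) to 0.73 (*Dlst*). Its median of 0.09 turned to -0.40 with library totals.

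In sterol and fatty acid synthesis, taken as 1 list, 12 of 33 genes rose and 14 fell (median log2 -0.02). This is 36.4% and 42.4%, near the 37.9% and 41.7% of all tested genes. *Insig1*, which holds back the sterol factor Srebp, rose 4.29-fold (78.6 ± 2.59 to 337 ± 22.6 CPM). The fatty acid enzymes *Fads1* (log2 -0.78 ± 0.05) and *Scd2* (-0.66 ± 0.05) fell. Among cholesterol export genes, 5 of 13 (38.5%) rose and 5 (38.5%) fell, again near the shares of all tested genes. *Abca1* (512 ± 18.8 to 304 ± 16.03 CPM), *Abcg1* (log2 -0.56 ± 0.04) and *Mylip* (-1.21 ± 0.05) were lowered and *Lpcat3* (0.51 ± 0.04) and *Pltp* (0.44 ± 0.03) raised. All 5 are known targets of the sterol sensor LXR, the raised ones are named after their values were seen, and *Pltp* turned lower with library totals.

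NRF2 antioxidant genes rose in 15 and fell in 2 of 19 (median log2 0.34, and -0.16 with library totals). *Sqstm1* rose 3.83-fold, *Txnrd1*, which reduces thioredoxin, 3.46-fold and *Prdx1* 2.64-fold, while *Gclm*, needed to make glutathione, fell 2.56-fold (363 ± 6.26 to 142 ± 5.45 CPM). Of the ATF4 and amino acid list, 10 of 18 rose and 6 fell (median 0.30, and -0.20 with library totals). *Ppp1r15a*, which restores translation after stress, rose 131-fold (6.75 ± 0.563 to 882 ± 85.4 CPM), and *Ddit4*, an inhibitor of mTOR, fell 5.08-fold. Metal genes rose in 11 and fell in 3 of 18 (median 0.55). The metallothioneins *Mt2* (6.802-fold) and *Mt1* (2.905-fold), the zinc exporter *Slc30a1* (4.397-fold) and the iron transporter *Slc11a2* (3.42-fold) rose, and *Tfrc*, the transferrin receptor, was at 120.3 ± 3.85 to 125 ± 2.98 CPM and did not pass the test. Chaperones rose in 13 and fell in 2 of 16 (median 0.44, and -0.06 with library totals), led by *Hspa1b* (17.2-fold) and *Hspa1a* (13.4-fold), close copies whose separate values are uncertain.

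Phagocytic receptors rose in 13 (44.8%) and fell in 12 (41.4%) of 29 cases, against 37.9% and 41.7% of all tested genes. Their median log2 fold change was 0.01 (-0.48 with library totals). The antibody receptors *Fcgr4* (192 ± 8.199 to 699.97 ± 29.7 CPM) and *Fcgr2b* (3.52-fold) and the receptor for dying cells *Axl* (2.98-fold) rose. The integrin chains *Itga6* (2.51-fold) and *Itgb5* (2.34-fold) and the scavenger receptor *Stab1* (1477 ± 26.7 to 791 ± 26.2 CPM) fell. Lysosome genes rose in 27 and fell in 7 of 40 (median 0.20, and -0.30 with library totals). *Ctsl*, a cathepsin, was the only one of them raised 2-fold (369 ± 6.99 to 864 ± 19.9 CPM), and *Psap* was at 5046 ± 186 to 5247 ± 149 CPM and did not pass the test. Alternative activation genes rose in 7 and fell in 1 of 9 tested (median 0.45, and -0.05 with library totals), among them *Pparg* (2.08-fold).

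Genes of TGF-β signalling and of Ca2+ handling held strong falls beside weaker rises. Of 23 genes of TGF-β and BMP signalling, 9 (39.1%) rose and 10 (43.5%) fell, near the 37.9% and 41.7% of all tested genes (median log2 -0.09). *Smad7* (10.03-fold) and *Smad6* (7.59-fold), which inhibit the pathway and are its targets, fell. *Tgfbi*, a matrix protein induced by TGF-β, was at 393, 439, 432 and 409 CPM in untreated libraries 1 to 4 and at 62.7, 58.97, 60.4, 50.6 and 56.7 CPM in zymosan libraries 1 to 5, a fall of 7.23-fold. The repressor *Ski* fell 6.69-fold, while its relative *Skil* rose 2.13-fold and *Tgif1* 3.06-fold. Of 35 Ca2+ handling genes, 15 (42.9%) rose, 10 (28.6%) fell and 10 did not pass the test. Among all tested genes 37.9% rose and 41.7% fell. The median log2 fold change of the Ca2+ handling list was 0.05, and -0.45 with library totals. *Nfatc2*, a transcription factor activated by calcineurin, was at 148, 150.1, 150.2 and 140.4 CPM in untreated libraries 1 to 4 and at 12.6, 14.4, 15.4, 11.5 and 13.8 CPM in zymosan libraries 1 to 5, a fall of 10.9-fold. *Nfatc1* fell 4.22-fold and the ATP-gated channel *P2rx7* 2.92-fold. Of the store-operated entry genes, *Stim2* rose 3.43-fold and *Orai2* 2.52-fold, while *Orai1* fell 2.32-fold and *Orai3* 1.78-fold. *Stim1* was at 50.8 ± 2.56 to 51.4 ± 2.92 CPM and did not pass the test. *Orai1*, *Orai3* and *Stim1* are named after their values were seen. *Mcu*, the pore of the mitochondrial Ca2+ uniporter, was at 8.46, 6.598, 7.77 and 6.93 CPM in untreated libraries 1 to 4 and at 7.33, 7.04, 6.48, 6.68 and 6.22 CPM in zymosan libraries 1 to 5. The groups overlapped, and the log2 fold change of -0.14 ± 0.10 had an adjusted p of 0.18 by edgeR's quasi-likelihood test. With library totals *Mcu* was called lower by the same test (log2 -0.64, adjusted p = 9.3e-07).

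Circadian clock genes moved in both directions, with 7 of 17 (41.2%) raised and 9 (52.9%) lowered (median log2 -0.23). Among all tested genes 37.9% rose and 41.7% fell. *Nfil3*, a repressor of clock output, rose 24.1-fold (3.41 ± 0.623 to 82.3 ± 4.55 CPM), *Rora* 4.46-fold and *Nr1d2* 2.86-fold, while *Per2* fell 4.75-fold. *Per1* was at 17.8 ± 0.431 to 16.1 ± 2.57 CPM and did not pass the test.

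Genes of the cell's basic machinery moved little, and the direction of most of these lists depended on the scaling, with mitochondrial ribosomal proteins the exception. Cytosolic ribosomal proteins rose in 81 of 84 (median log2 0.25, and -0.25 with library totals). Their share of all counts was 5.198% ± 0.205 (SD, n = 4) untreated and 4.38% ± 0.0714 (SD, n = 5) with zymosan, with no overlap (exact two-sided permutation test, p = 0.0159, adjusted p = 0.0317 over 2 shares, the smallest p this design allows). Mitochondrially encoded transcripts rose in 7 of 11 (median 0.25, and -0.25 with library totals), and held 1.42% ± 0.150 (SD, n = 4) and 1.23% ± 0.0920 (SD, n = 5) of all counts, with overlapping libraries (exact two-sided permutation test, p = 0.0794, adjusted p = 0.0794). Nuclear genes of the respiratory chain rose in 41 and fell in 6 of 77 (median 0.11, and -0.39 with library totals). Mitochondrial ribosomal proteins rose in 13 and fell in 38 of 77 (median -0.13, and -0.63 with library totals). Ribosome biogenesis genes rose in 22 and fell in 5 of 34 (median 0.22, and -0.28 with library totals), with *Wdr43* (2.37-fold) and *Nop58* (2.25-fold) raised and *Rrp1b* lowered 2.25-fold.

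The raised genes took over much of the RNA. The 1368 genes raised at least 2-fold held 7.77% to 7.96% of all counts in the untreated and 27.3% to 28.1% in the zymosan libraries, and the 1512 genes lowered at least 2-fold held 4.90% to 5.01% and 1.10% to 1.17%. These sets were chosen on the same libraries, so the shares are descriptions. The 8 genes with the highest CPM untreated were *Actb*, *Tmsb4x*, *Fth1*, *Eef1a1*, *Lyz2*, *mt-Co1*, *Ftl1* and *Psap*, and with zymosan *Rsad2* took the place of *Psap*. *Actb* was at log2 0.13 ± 0.02 with TMM, and its share of counts went from 1.72% to 1.33%. *Gapdh*, another common reference gene, was at log2 0.30 ± 0.03 with TMM, and turned lower with library totals as *Actb* did.

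A few genes went from no counts at all to a measurable level or the reverse. Of the 11250 genes, 53 had at most 3 counts in every untreated library and more in some zymosan library, 11 of them with at least 10 CPM with zymosan, and 23 had at most 3 counts in every zymosan library and more in some untreated library, 0 of them with at least 10 CPM untreated. *Nipal1*, a magnesium transporter gene, had 0 counts in every untreated library and a mean of 2.78 CPM with zymosan, at least 19.9-fold higher against 3 counts per library. *Zic5* was at least 8.72-fold higher by the same bound, *Etnk2* at least 6.16-fold and *Il19*, a cytokine of the interleukin 10 family, at least 5.496-fold. *Lzts1* had 0 counts in every zymosan library and was at least 3.67-fold lower. These bounds cover counting error only.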

How the data were processed

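The authors removed adaptors with cutadapt, mapped paired-end reads to mm10 with STAR, counted reads per gene with HTSeq and deposited raw counts without normalization. Strand settings and the treatment of shared reads were not given in the sources used here, so genes that overlap or lie antisense cannot be told apart. Of 21963 entries, 21733 matched GENCODE M21 by symbol and 21647 were protein-coding. Repeated symbols (25 entries) were kept apart. Columns of all groups were mapped by label, and the 9 libraries used were fitted alone in R 4.3.3 with edgeR 4.0.16: filterByExpr, TMM, a quasi-likelihood test with 1 coefficient per group and no covariate, and Benjamini-Hochberg adjustment, with calls at an adjusted p under 0.05. The study's own tests used DESeq2, which served here (version 1.42.0) as an alternative. Errors of CPM are SDs over libraries and errors of log2 fold changes are SEs of the fit. Gene length was not corrected for, so levels of different genes are shares of reads. Groups with at most 3 counts in every library count as at the detection floor. Folds at the floor carry a 95% Clopper-Pearson interval of the pooled counts or a lower bound. Gene lists were written by hand. The groups compared, the lists and the tests were chosen with earlier results of these data known. Named genes were the 12 largest rises and falls (called, at least 10 CPM, no overlap), per list the 5 largest changes, 3 in the minority direction and the most abundant member not called, the most abundant genes, the floor genes and a fixed set, of which some are left out for length. Some genes are not reported here, and they were left out of the runs of neighbours. The list of noncoding RNAs had 0 tested members. Scripts were tested on simulated data. Alternatives were DESeq2's size factors and Wald test, library totals, 2 other count filters, all 20 libraries in 1 fit, the replicate number as a block, leaving out each library and a 2-fold minimum. Figures were drawn with matplotlib.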

Additional observations from a re-analysis of the deposited data

Results flagged for a closer look

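Each value below lay further from the other libraries of its group than a test for a single outlier allows at the 95% level. The test was run on 494 groups of values, of which chance flags about 1 in 20, and it flagged 21. Of these, 5 were in zymosan library 4, which also stands apart on the second principal component, and 4 each were in untreated libraries 1 and 4.

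Total counts were 14.4 M in untreated library 4, against 19.1 to 19.3 M in the other untreated libraries. In the same library *Ccl6* was highest at 103 CPM (others 90.7 to 92.0), *Mmp14* lowest at 18.1 CPM (22.0 to 22.7) and *Pparg* lowest at 12.7 CPM (13.5 to 13.6). Untreated library 1 was lowest in *Fads1* at 72.8 CPM (80.1 to 80.6), *Ifit1* at 14.9 CPM (17.7 to 18.1), *Il21r* at 137 CPM (146 to 148) and *Per2* at 10.3 CPM (12.7 to 12.8). Untreated library 2 was lowest in *Rora* at 2.11 CPM (2.72 to 2.78) and was the only untreated library with counts of *Il33*, at 0.0863 CPM. Untreated library 3 was the only one with counts of *Nos2*, at 0.0868 CPM.

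In zymosan library 4, *Cdkn1a* was highest at 957 CPM (877 to 899), *Ddx58* highest at 450.4 CPM (407 to 412), *Tmem173* highest at 22.8 CPM (18.6 to 19.2), *Itgb5* lowest at 70.004 CPM (77.6 to 80.6) and *Vegfa* lowest at 11.2 CPM (13.2 to 13.8). Zymosan library 1 was highest in *Bcl2l1* at 74.8 CPM (67.1 to 69.3) and *Nr1d2* at 115 CPM (98.4 to 102). *Cx3cr1* was highest in zymosan library 2 at 0.788 CPM (0.346 to 0.467), *Cdt1* in zymosan library 3 at 129 CPM (115 to 118) and *Il19* in zymosan library 5 at 1.02 CPM (0.674 to 0.735).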

How the results depend on the processing

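With library totals 1976 genes were higher and 8354 lower, and all 1976 and all 4688 of the main lowered genes were shared with the main calls of that direction. A minimum absolute log2 fold change of 1 left 1368 and 1512. DESeq2's size factors, its Wald test, both filters and the fit of all 20 libraries gave 3790 to 4502 higher and 4303 to 4972 lower. Leaving out each library gave 4182 to 4289 higher and 4504 to 4658 lower, a share difference of -0.243 to -0.150 percentage points for mitochondrially encoded transcripts and of -0.891 to -0.751 for cytosolic ribosomal proteins. Whether the replicate numbers pair the libraries is not known. Deviations of same-numbered libraries correlated at -0.0426, 0.0282, 0.0236 and 0.0366, within the -0.0443 to 0.0369 of all pairs. Correlations this weak cannot exclude shared animals or batches. With the replicate block 4217 genes were higher and 4631 lower, *Psap* (adjusted p = 0.017) and *Zfp106* (0.042) gained a call in edgeR's test and *H2-DMa* lost its own (0.057).

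Library totals turned the median of these lists negative: ATF4 and amino acid response (-0.20), NRF2 (-0.16), tricarboxylic acid cycle (-0.40), alternative activation (-0.045), calcium handling (-0.45), complement (-0.14), cyclins D (-0.46), cytosolic ribosomal proteins (-0.25), heat shock (-0.060), lysosome (-0.30), mitochondrially encoded (-0.25), phagocytic and scavenger receptors (-0.48), respiratory chain (-0.39) and ribosome biogenesis (-0.28). With at least 10 counts in every library, which tests fewer genes, the median of G protein-coupled receptors was 0.29. Single genes turned negative with library totals were *Actb* (-0.37), *Adgre1* (-0.23), *Adgre4* (-0.30), *C1qa* (-0.47), *Cyld* (-0.46), *Ddx3y* (-0.49), *Eef1a1* (-0.14), *Ftl1* (-0.037), *Gapdh* (-0.19), *Lyz2* (-0.31), *Mki67* (-0.48), *Ncf4* (-0.44), *Pltp* (-0.054), *Psap* (-0.44), *Pycard* (-0.49), *Tfrc* (-0.44), *Tlr6* (-0.48), *Tmsb4x* (-0.34), *Vegfb* (-0.49), *Zfp106* (-0.43) and *mt-Co1* (-0.19), and *Cdkn1b* (-0.51), *Cx3cl1* (-0.63), *H2-DMb1* (-0.61), *Hist2h2be* (-0.67), *Mcu* (-0.64) and *Per1* (-0.64), lower in both, gained a call and *Lpcat3* (0.019) lost one. Of 244 of the genes named, 239 kept direction and call in the fit of all 20 libraries, where *Actb*, *Lyz2*, *Scd2*, *Tmsb4x* and *mt-Co1* lost theirs. Under DESeq2's size factors and under its Wald test 240 did, and *Ncf4*, *Psap*, *Tfrc* and *Zfp106* gained a call. Leaving out 1 library gave a call to *Psap* (untreated 2 or 3, zymosan 1, 2, 4 or 5), *Zfp106* (untreated 2, zymosan 5), *Adgre4* (untreated 2), *Tfrc* (zymosan 5) and *Per1* (zymosan 3). Genes near 1 CPM rest on about 20 counts per library.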
